A study of Mus musculus with 8 samples.

Results

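The DnaJ co-chaperones are proteins with a J domain, the part that docks on an Hsp70 chaperone, drives it to hydrolyze ATP and so makes it clamp onto an unfolded protein. Each Hsp70 has its own J proteins. Class A and B members of the cytosol bring their Hsp70 misfolded chains. Members with the J domain in the lumen of the endoplasmic reticulum (ER) serve BiP, encoded by Hspa5. Mitochondrial members such as Dnaja3 serve mortalin, encoded by Hspa9. Class C members share little beyond the J domain and tend to have one fixed task each, such as splicing, vesicle uncoating or protein import. Genes were taken as members when their symbol begins with Dnaja, Dnajb or Dnajc and a digit, leaving out Dnajb1, Dnajb9 and the pseudogene symbols. The rule found 41 symbols among the 28712 genes listed, of which 39 were in both tables. A mean normalized count of at least 10 in both tables was reached by 36 members, and 13629 genes in all reached it.

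The RNA came from 4T1 cells, a mouse mammary tumor line used as a model of triple-negative breast cancer, labelled wild type (WT) and kept at 1% O2. The groups were sdAb-Con for 48 h, sdAb#07.81 for 24 h and sdAb#07.81 for 48 h, each with 0.5 μg/mL of purified single-domain antibody (sdAb) protein and 2 libraries. The sdAb#07.81 protein binds NUPR1, a stress-induced chromatin protein, and sdAb-Con is the control sdAb; the Con group was not analysed here. The authors deposited 2 tables, each with 1 mean normalized count per gene over its 4 libraries. The 48 h table pools sdAb-Con (48 h) with sdAb#07.81 (48 h), and the time table pools sdAb#07.81 (24 h) with sdAb#07.81 (48 h). A pooled mean has no value per library, so the values below carry no replicate error, and no difference between groups was tested.

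The mean normalized counts of the 48 h table summed to 17867752 and those of the time table to 17900221. All 6 epithelial markers looked up, with Cdh1 the highest in the 48 h table, had means of at least 10 in both tables. Of 4 endothelial markers none reached that mean, and of 7 immune markers 1 did, Cd68. Of 5 fibroblast markers 4 did, led by Pdgfra at 607. Summed over each list in the 48 h table, epithelial markers reached 44280, fibroblast markers 842, immune markers 691 and endothelial markers 10.9. Nupr1 itself had a mean normalized count of 2990 in the 48 h table and 2373 in the time table.

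Promoter sequence is shown for all 7 members that carry the letters of the heat shock element or the ER stress response element, since these are the textbook binding sites of HSF1 and of ATF6 with NF-Y. RefSeq promoters on GRCm38.p6, from 250 bases before to 50 bases after a gene's start, were found for 30 of the 36 members. The letters searched on both strands were GAANNTTC and TTCNNGAA, which are pairs of heat shock units, the longer run of 3 units GAA, TTC and GAA with 2 bases between neighbours, which holds both pairs, and the ER stress response element, CCAAT and CCACG with 9 bases between them. Each line below gives the stretch before the start site, 5′ to 3′ on the gene's strand, with the matching letters in capitals.
Dnaja4: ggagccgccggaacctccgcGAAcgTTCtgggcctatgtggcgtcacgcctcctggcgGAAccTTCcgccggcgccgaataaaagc
Dnaja1: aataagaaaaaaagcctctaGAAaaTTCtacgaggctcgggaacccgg
Dnajb4: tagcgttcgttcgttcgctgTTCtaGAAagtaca
Dnajb6: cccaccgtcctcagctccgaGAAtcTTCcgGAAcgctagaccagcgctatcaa
Dnajc10: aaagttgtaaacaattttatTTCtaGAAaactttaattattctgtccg
Dnajc27: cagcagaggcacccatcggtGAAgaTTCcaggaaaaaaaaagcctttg
Dnajc3: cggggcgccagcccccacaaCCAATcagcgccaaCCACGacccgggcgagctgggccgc

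On GRCm38.p6 these stretches lie at chr9:54699449-54699534 (plus strand) for Dnaja4, chr4:40722324-40722371 (plus) for Dnaja1 and chr3:152193846-152193879 (minus) for Dnajb4. The Dnajb6 stretch lies at chr5:29735832-29735884 (plus), that of Dnajc10 at chr2:80315264-80315311 (plus), that of Dnajc27 at chr12:4082341-4082388 (plus) and that of Dnajc3 at chr14:118937807-118937865 (plus). Dnaja4 holds GAANNTTC 2 times, starting 90 and 52 bases before its start. The 3-unit run was matched by Dnajb6 among the members, and 0.662% of all 27025 genes with a promoter hold it in at least 1 of their promoters. GAANNTTC was matched by 4 of the 30 members (Dnaja1, Dnaja4, Dnajb6 and Dnajc27), a share of 13.3%, against 9.04% of all genes. TTCNNGAA was matched by 3 members (Dnajb4, Dnajb6 and Dnajc10), a share of 10.0%, against 9.60% of all genes. The ER stress response element was matched by Dnajc3 alone of the members, and by Hspa5 and Hsp90b1 among the genes of the partner list described further on. It occurs in 0.137% of all genes. Of the same partner genes, Hsph1 holds the 3-unit run and so both pairs, and Bag3, Hspa1a, Hspa1b and Stub1 hold GAANNTTC. A match describes these letters only, and a member without one may bind the same factors through other letters or outside this window.

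The first question was which J proteins 4T1 cells express most, with levels compared per kilobase (kb) of the longest transcript. Levels below are the mean of both tables, in mean normalized counts per kb. The highest members on this scale were Dnaja2 at 1935, Dnajc8 at 1456, Dnaja1 at 1308 and Dnajb6 at 1157. Each stood at or above 93.3% of genes. All of them are of the cytosolic class, which here also holds members of the nucleus and of vesicles. Dnajb1, which the rule leaves out, stood above them on this scale and is given further on. Dnaja1 and Dnaja2 are the general class A co-chaperones of cytosolic Hsp70, Dnajb6 is known for holding back aggregates of polyglutamine proteins, and Dnajc8 is a splicing factor. The median over the 36 members was 180.2 per kb, beside 146 over the 13489 genes with a known length. Per kb of median transcript length these medians were 619 and 321, and per kb of coding length 587 and 403, the last over the 11701 genes with a coding length.

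**Figure D1:**
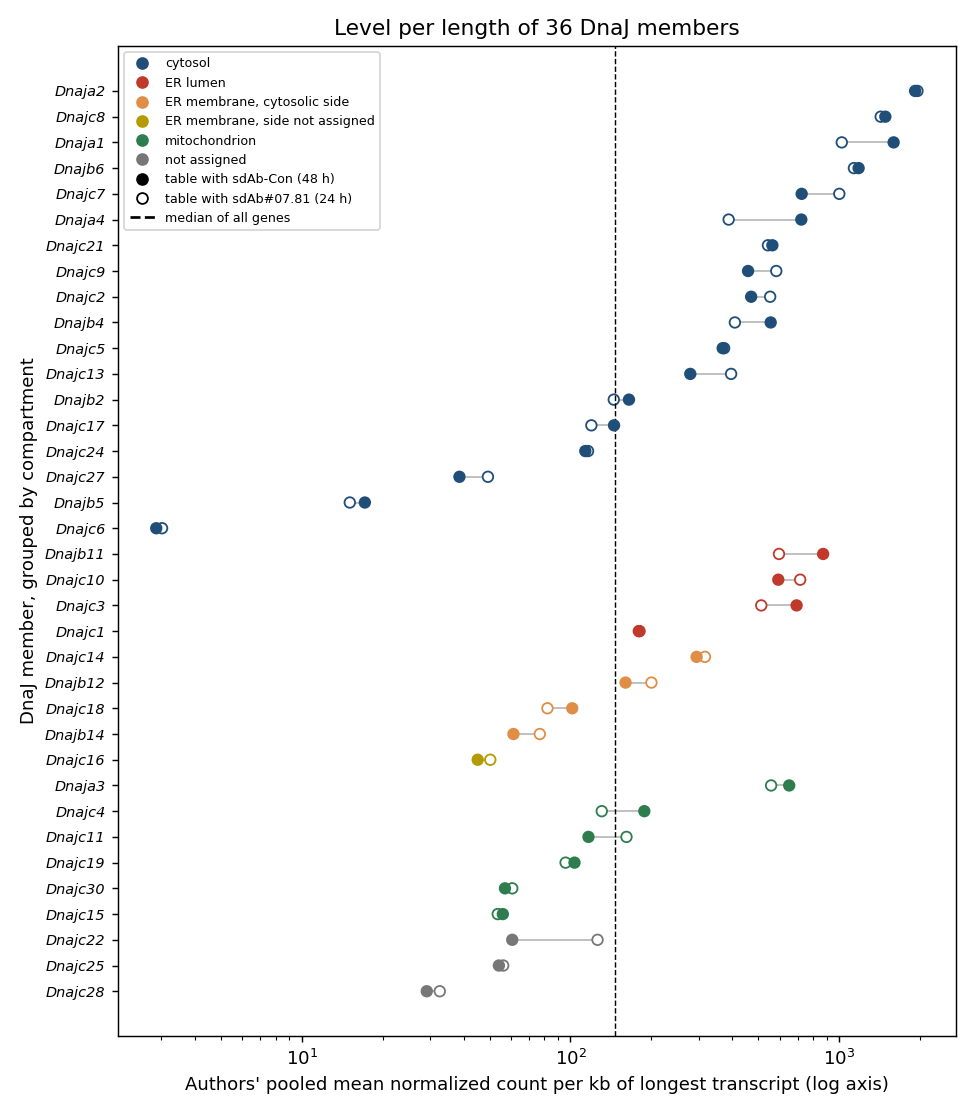
Level per length of the 36 members, grouped by compartment, as the authors' pooled mean normalized count per kb of the longest transcript on a log axis; filled points are the 48 h table, open points the time table, and the dashed line is the median of all genes at 146 per kb. As the mean of both tables, levels run from 2.95 for Dnajc6 to 1935 for Dnaja2.

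The next 6 members in the order were Dnajc7 at 863, Dnajb11 at 734, Dnajc10 at 655, Dnaja3 at 605, Dnajc3 at 603 and Dnaja4 at 555 per kb. Dnajc7 carries tetratricopeptide repeats that hold both Hsp70 and Hsp90. Dnajb11, Dnajc10 and Dnajc3 are 3 of the 4 ER lumen members and work with BiP. Dnaja3 is the class A member of the mitochondrion. Dnaja3 and Dnajc3 lie next to each other in this order, and without values per library no neighbours can be told apart. The choice of length moves the order, since coding length keeps 8 of these 10 members and median transcript length keeps 7. The first place moves as well. Per kb of coding length Dnaja1 was first at 6174 and Dnaja2 stood at 4570. Per kb of median transcript length Dnaja1 was first at 8443, followed by Dnajc13 at 4307, with Dnaja2 in place 5 at 3298. The median transcript of Dnajc13, 0.628 kb, is shorter than its coding length of 6.744 kb, and per kb of coding length it stood at 401. For Dnaja1 too the median transcript, 0.871 kb, is shorter than the coding length, 1.191 kb. Short listed transcripts thus raise a level per kb of median transcript length. Dnajc6 was the lowest by each length.

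Other members of the cytosolic class followed, among them those of the nucleus, ribosome and vesicles. Dnajc21, a factor of large ribosomal subunit maturation, stood at 554 per kb, and Dnajc9, a histone chaperone, at 521. Dnajc2, which sits at the ribosome's exit tunnel, stood at 512. The heat-inducible class B member Dnajb4 was at 482, Dnajc5, the cysteine string protein of secretory vesicles, at 371, and Dnajc13, an endosomal sorting protein, at 338. Dnajb2 was at 155, Dnajc17, a splicing factor, at 132, and Dnajc24, needed for diphthamide synthesis, at 115. Dnajc27, which joins a Rab-like GTPase to a J domain, was at 44.0 and Dnajb5 at 16.1. Dnajc6, the auxilin that is best known from neurons, was the lowest at 2.95. The 18 cytosolic members therefore covered the whole range of levels, with a median of 497.

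The 9 ER members had a median of 180.2 per kb. Of the lumen members, Dnajc1, a membrane protein that binds ribosomes, was the lowest at 180.2. Of the ER membrane members whose J domain faces the cytosol, Dnajc14 stood at 306, Dnajb12 at 180.2, Dnajc18 at 91.8 and Dnajb14 at 69.1. Dnajb12 and Dnajb14 are close relatives that act in ER-associated degradation. Dnajc16 stood at 47.7. The authors' gene ontology terms place 8 of these 9 genes in the ER, all but Dnajc16. They also place Dnaja1 of the cytosolic members and Dnajc25 of the unassigned ones there. The compartments used here were assigned by hand from background knowledge, and each split into cytosol and ER rests on that.

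Of the 6 mitochondrial members, Dnaja3 was the highest. It was first by each length, but the size of its lead depends on the length used. Per kb of median transcript length it stood at 1080 beside 944 for Dnajc11, whose median transcript, 0.8265 kb, is shorter than its coding length of 1.677 kb. Per kb of coding length it stood at 1112 beside 760 for Dnajc15. Per kb of the longest transcript, Dnajc4 was at 160, Dnajc11, a protein of the outer membrane that binds the cristae-organizing complex, at 139, and Dnajc19 at 99.7. Dnajc30 was at 58.9 and Dnajc15 at 54.8. Dnajc15 and Dnajc19 are relatives that serve the import motor of the inner membrane. Members with no compartment assigned were also low, with Dnajc22 at 93.4, Dnajc25 at 55.2 and Dnajc28 at 30.9. Reads of Dnajb6 and Dnajc19 may be shared with the pseudogenes Dnajb6-ps and Dnajc19-ps, whose pooled means were at most 38.7.

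The 5 members under a mean of 10 in either table were of the cytosolic list. Dnajb13 had mean normalized counts of 8.02 and 5.08 in the 48 h table and the time table, Dnajc12 of 4.72 and 4.81, and Dnajc5b of 0.252 and 0.489. Dnajb7 and Dnajb8 were listed in the time table alone, at 0.467 and 0.230. The lowest member kept, Dnajc6, had 15.3 and 16.1.

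Summed over a compartment, the 18 cytosolic members held 37115 of the mean normalized counts in the 48 h table and 34069 in the time table. The 9 ER members held 12262 and 11421, and the 6 mitochondrial members 3282 and 3197. All 36 members together held 0.297% of the summed counts of the 48 h table and 0.275% of those of the time table. The ratio of the totals was 1.09 for the cytosol, 1.07 for the ER and 1.03 for the mitochondrion. Each of these fell below 1 when 1 member was left out. The ratio was then 0.994 for the cytosol without Dnaja1, 0.990 for the ER without Dnajc3 and 0.906 for the mitochondrion without Dnaja3. The ER ratio did not hang on Dnajc3 alone, as it was 1.02 without Dnajb11. Within the ER the ratio was 1.14 for the 4 lumen members, 1.07 without Dnajb11, and 0.916 for the 4 membrane members that face the cytosol. The ratios of single members overlapped, from 0.829 to 1.46 in the lumen and from 0.798 to 1.24 in the membrane. Since read counts grow with transcript length, these sums describe sequenced RNA and not numbers of molecules.

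The second question was how the members stand between the tables. Both tables hold the sdAb#07.81 (48 h) libraries, so a pooled mean that is higher in the 48 h table reflects sdAb-Con (48 h) against sdAb#07.81 (24 h), apart from the separate scaling of the tables. These groups differ in antibody and in time, which cannot be told apart here. The shared libraries pull each ratio towards 1, and the pooled means do not tell by how much. Of the 36 members, 8 had a ratio of at least 1.2 (22.2%), where 16.4% of all 13629 genes did, and 9 had a ratio at least as far below 1 (25%), where 25.5% of all genes did. The median ratio was 0.984 over the members and 0.969 over all genes. Both shares of the members and their median thus lay near those of the genes at large, and single members ranged from 0.481 to 1.86. The fold of 1.2 was chosen after the tables were seen.

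**Figure D2:**
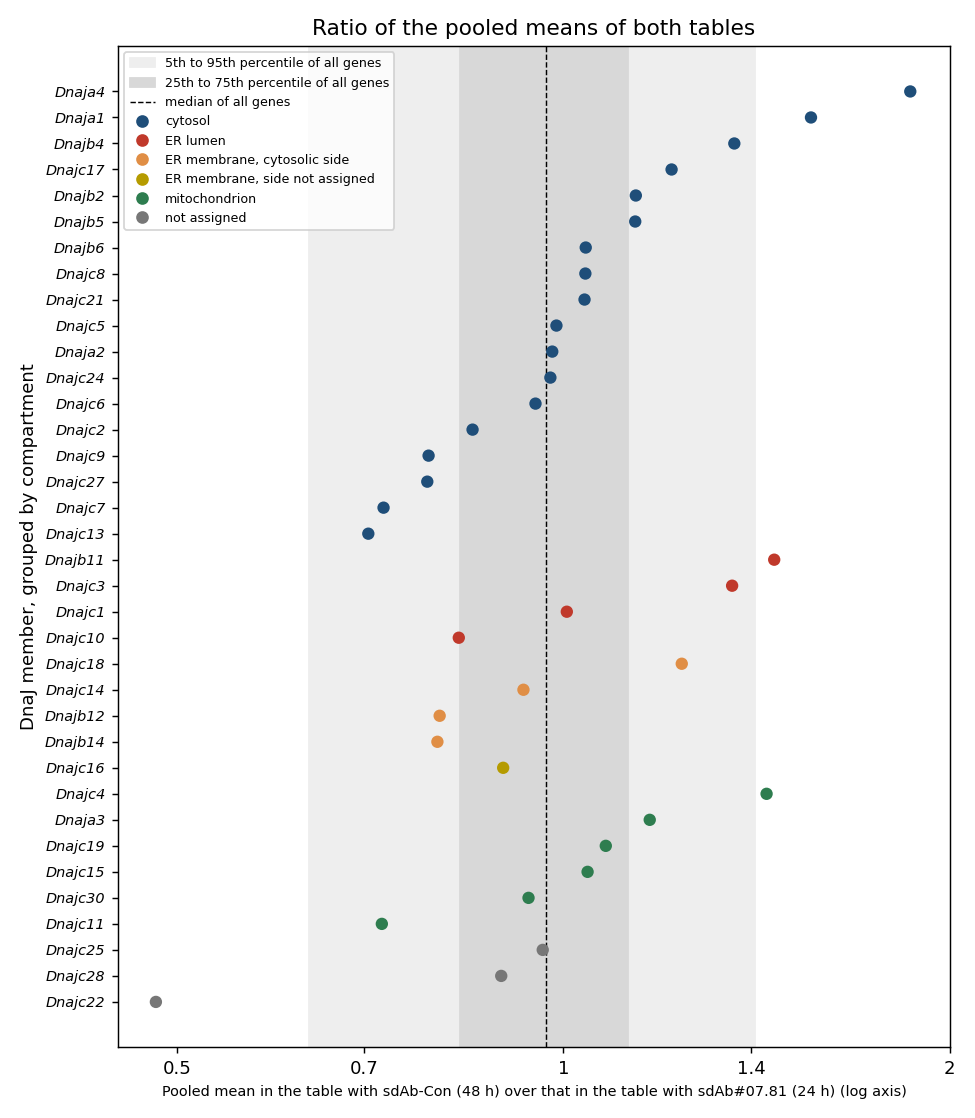
Ratio of the pooled mean in the 48 h table to that in the time table for each of the 36 members, on a log axis, grouped by compartment; the grey bands hold the 25th to 75th and the 5th to 95th percentile of 13629 genes and the dashed line is their median, 0.969. Dnaja4, Dnaja1, Dnajb11 and Dnajc4 lie above the 95th percentile, and Dnajc22 lies below the 5th.

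The 2 highest ratios belonged to class A members of the cytosol. Dnaja4, which responds to heat and to cholesterol depletion, had mean normalized counts of 2170 in the 48 h table and 1165 in the time table, a ratio of 1.86 that 0.286% of all genes reached. Dnaja1 had 8961 and 5747, a ratio of 1.56 that 1.75% of genes reached. In contrast Dnaja2, the class A member held to be expressed constitutively, had 5593 and 5705, a ratio of 0.980. The tables, which name no genome build, place Dnaja4 (ENSMUSG00000032285) on chromosome 9 between 54606157 and 54623599. They place Dnaja1 (ENSMUSG00000028410) on chromosome 4 between 40722150 and 40737149. With a fold of 1.5, these were the 2 members that stayed above it (2.55% of all genes did), and Dnajc22 was the 1 as far below 1 (6.76% of all genes were).

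Dnajb11, the ER lumen member that binds unfolded chains for BiP, came next with mean normalized counts of 2189 and 1500, a ratio of 1.46. Dnajc4 of the mitochondrion had 202 and 140, a ratio of 1.44. Dnajb4 had 2731 and 2010, a ratio of 1.36. Dnajc3, which inhibits the eIF2α kinase PERK, had 3569 and 2636, a ratio of 1.35. Dnajc18 at 1.24 and Dnajc17 at 1.21 completed the 8 members. Of the members with heat shock letters, Dnaja4 had a ratio of 1.86, Dnaja1 of 1.56 and Dnajb4 of 1.36. Dnajb6, the one with the longer match, had 1.04, Dnajc10 0.829 and Dnajc27 0.783. Whether these letters bear on the ratio was not tested.

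At the other end stood Dnajc22, a membrane protein with no compartment assigned, with mean normalized counts of 94.98 in the 48 h table and 197 in the time table, a ratio of 0.481. The tables place it (ENSMUSG00000038009) on chromosome 15 between 98991051 and 99002618. Dnajc13 had 2236 and 3173, a ratio of 0.705. Dnajc11 had 654 and 906, a ratio of 0.722, and Dnajc7 had 1689 and 2332, a ratio of 0.724. Dnajc27 had 182 and 232. The other members at least 1.2-fold lower were Dnajc9 at 0.785, Dnajb14 at 0.798, Dnajb12 at 0.801 and Dnajc10 at 0.829. Dnajc22 apart, these ratios all lay within the middle 90% of genes, which ran from 0.633 to 1.41.

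Some relatives stood alike and others did not. Dnajb12 and Dnajb14 had nearly the same ratio, 0.801 and 0.798. So did Dnajc15 and Dnajc19 at 1.04 and 1.08, both between the 25th and 75th percentile of all genes, 0.831 and 1.12. Of the class A members, Dnaja1 at 1.56 and Dnaja2 at 0.980 stood apart. The ER lumen members were split, since Dnajb11 and Dnajc3 were higher in the 48 h table, Dnajc1 had a ratio of 1.01 and Dnajc10, a disulfide reductase, was lower. Of the 18 cytosolic members, 4 were at least 1.2-fold higher, 4 were at least 1.2-fold lower and 10 lay in between, beside 16.4% of all genes higher and 25.5% lower. In the mitochondrion Dnajc4 was higher and Dnajc11 lower, while Dnaja3 stood at 1.17 and Dnajc30 at 0.939.

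The members not yet placed in this comparison lay within 1.2-fold of equal means. Dnajb2 and Dnajb5 both stood at 1.14, and Dnajc8 and Dnajc21 both at 1.04. Dnajc5 was at 0.988, Dnajc24 at 0.977, Dnajc25 at 0.964 and Dnajc6 at 0.951. Dnajc14 was at 0.931, Dnajc16 at 0.898, Dnajc28 at 0.895 and Dnajc2 at 0.850.

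The partner list holds 31 genes that work with J proteins, namely the Hsp70 family, its nucleotide exchange factors and Hsp90 with co-chaperones, and 29 of them had a mean of at least 10 in both tables. The ratio was at least 1.2 for 12 of these and at least that far below 1 for 2, with a median of 1.13. Over all genes these shares were 16.4% and 25.5%, with a median of 0.969. Hspa1b, the stress-inducible Hsp70, had the highest ratio of the list, 2.26, with pooled means of 36413 and 16125. Hsph1, an exchange factor of cytosolic Hsp70, had 1.81, Hspa5 1.71, the constitutive Hspa8 1.65 and Hyou1, an exchange factor of BiP, 1.63. Of the other partners with heat shock letters, Bag3 had 1.39 and Stub1 1.10. Mitochondrial Hspa9 had 1.15 and Hspa4, another exchange factor, 0.860. The 2 genes at least 1.2-fold lower were Hspbp1 at 0.722 and Hspa1l at 0.656, the latter with pooled means of 15.1 and 23.0. Reads of Hspa1b cannot be told apart with certainty from those of its near-identical neighbour Hspa1a, whose pooled means were 28.5 and 16.3.

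**Figure D3:**
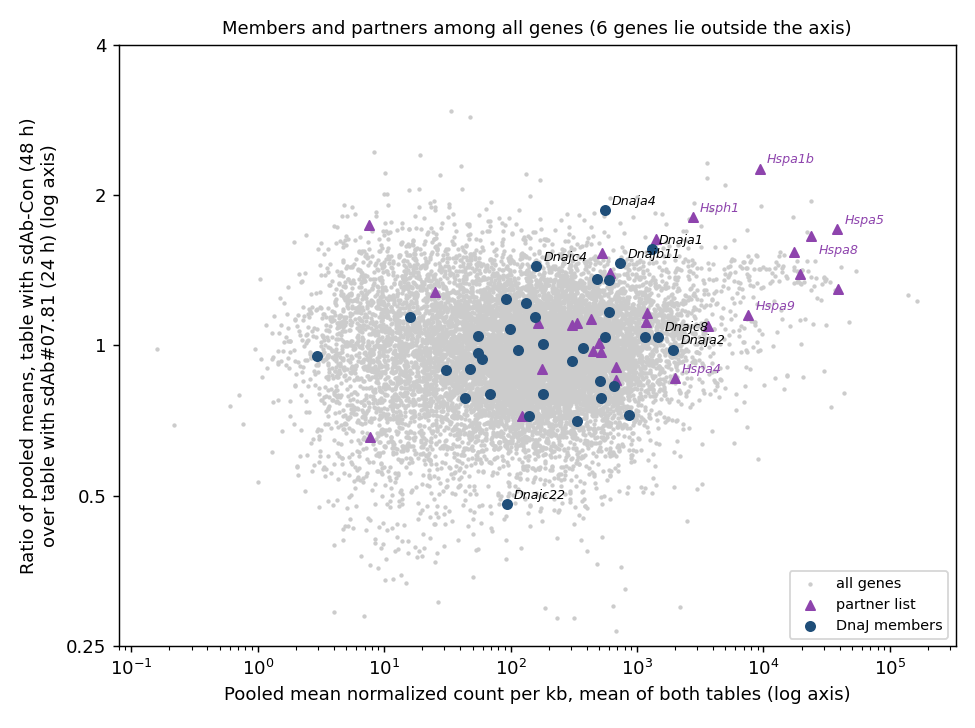
Ratio of pooled means (48 h table over time table, log axis) against the level per kb (log axis) for 13489 genes in grey, the 36 DnaJ members as circles and the kept partner genes as triangles; 6 genes lie outside the axis. Hspa5 (38267 per kb) and Hspa8 (23746 per kb) stand to the right of every member, and Dnaja4 (1.86) stands near Hsph1 (1.81) in ratio.

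Set side by side per kb of the longest transcript, the main Hsp70 of each compartment stood above the J protein genes named here. Hspa8 stood at 23746 per kb, beside 1935 for Dnaja2 and 3587 for Dnajb1, the cytosolic J protein that the rule leaves out. The pooled means of Dnajb1, 14702 and 6793, were above those of every member. Hspa5 stood at 38267 per kb, beside 734 for Dnajb11, the highest ER member on this scale. Per kb of median transcript length Dnajc10 led the ER members at 3154, with Dnajb11 at 1038. The median transcript of Dnajc10, 0.839 kb, is shorter than its coding length of 2.379 kb. Per kb of coding length Dnajc3 led at 2052, with Dnajb11 at 1717. Hspa9 stood at 7586 per kb, beside 605 for Dnaja3. These are levels of RNA and say nothing of the amounts of protein.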

How the data were processed

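4T1 RNA was sequenced in 4 groups of 2 libraries (8 in all), of which 3 are in the 2 tables used. The submitters' processing notes name cutadapt 1.9.1, HISAT2 2.0.1, HTSeq 0.6.1 and the human build GRCh38.p14, while gene identifiers are mouse Ensembl. Of 27409 genes also in GENCODE M21 (GRCm38), 551 had the same start and end, so listed coordinates carry no build. The deposited signal used is the mean over 4 libraries of reads divided by size factors, by the authors. Their fold changes, standard errors, statistics and p-values were not used. No spread, interval or test can be had from pooled means, and the planned count tests were not run. Whether libraries are separate cultures is not stated. Lengths came from GENCODE M21 and promoters from RefSeq. All members are named, with more on the 10 highest per kb and the 5 highest and 5 lowest ratios. Members and lists were chosen with earlier results of these data known. Python 3.11.15, numpy 2.4.6, pandas 2.3.3 and matplotlib 3.10.9 were used.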

Additional observations from a re-analysis of the deposited data

How the results depend on the processing

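Because each table gives 1 pooled mean per gene, no interval shows how far any value here could move by sampling. With a minimum mean of 1 or 100 in place of 10, the number of members kept was 38 or 32, and summing repeated rows left it at 36. The median level per kb was 619 with median transcript length and 587 with coding length. The median ratio of the tables was 0.986 with equal sums, 1.02 with the median of all genes set to 1 and 0.997 with a minimum mean of 100, so its side of 1 depends on the scaling. Members at least 1.2-fold apart numbered 8 or 9 higher and 8 or 9 lower under these settings, and 2 higher and 1 lower with a fold of 1.5, a setting chosen after seeing the data. Counting the ER membrane members that face the cytosol with the cytosol gave totals of 39958 and 37174 for the cytosol (48 h table and time table), with a ratio of 1.07, and of 9419 and 8317 for the ER, with a ratio of 1.13. Without the member of highest level per kb (Dnaja2 or Dnajb11) the totals were 31522 and 28364 for the cytosol, with a ratio of 1.11, and 10073 and 9922 for the ER, with a ratio of 1.02. Without the member of highest mean count (Dnaja1 or Dnajc3), a setting chosen after seeing the data, they were 28154 and 28323 for the cytosol and 8693 and 8785 for the ER, and the ratios of 0.994 and 0.990 lay on the other side of 1. No paired analysis was possible because a pooled mean carries no replicate number, and for want of counts per library the planned count tests, their filter and leaving out each replicate were not run.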
